A study of Homo sapiens with 10 samples.

Results

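The nuclear genes that encode the subunits of the mitochondrial respiratory chain were followed in RPE-1 cells given sulforaphane (SFN) or its vehicle. Members were chosen by gene symbol alone: symbols that begin with NDUFA, NDUFB, NDUFC, NDUFS or NDUFV, with UQCR, with COX followed by a digit from 4 to 8, or with ATP5, and the symbols SDHA, SDHB, SDHC and SDHD. The 10 NDUFAF genes and 38 rows of pseudogenes were left out, which gave 90 of the 28380 genes in the count table. Of these, 85 were subunits or factors of complexes I to V, and the other 5 were antisense, divergent or readthrough transcripts that carry a member's name. Enough reads for a test were found for 79 of the 85: 36 of complex I, 4 of complex II, 9 of complex III, 12 of complex IV and 18 of complex V. The 6 that stayed below the filter were NDUFA7, NDUFA4L2, COX6B2, COX7A1, COX8C and ATP5MGL. COX4I2, COX6A2 and COX7B2 were not analysed here.

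The respiratory chain lies in the inner mitochondrial membrane. Complex I (NADH dehydrogenase) and complex II (succinate dehydrogenase) feed electrons into ubiquinone, complex III passes them to cytochrome c, and complex IV (cytochrome c oxidase) gives them to oxygen. Complexes I, III and IV pump protons, and complex V, the ATP synthase, uses the resulting gradient to make ATP. The mitochondrial genome encodes only a few of the subunits. The rest are transcribed in the nucleus, imported as proteins and fitted together with the help of assembly factors, and their genes are known targets of the transcription factors NRF1, GABP (also called NRF2, and unrelated to the NFE2L2 product that shares that name) and YY1.

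RPE-1 is an immortalised human retinal pigment epithelial cell line. Both groups were cells of this line in the same medium, with no genotype named in the labels: 5 libraries came from cells given DMSO and 5 from cells given 25 µM SFN, each for 4 h. Nothing in the labels says whether the 5 libraries of a group came from separate cultures, so the p-values measure the spread between these libraries, which may be technical. The libraries are bulk RNA, in which fewer cells of a type and less RNA per cell cannot be told apart.

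Total counts per library ran from 15689294 to 20666692 in DMSO and from 12375860 to 17308706 in SFN, and 13378 genes were tested. KRT8 (4835 to 8522 counts per library) and KRT18 (2396 to 4310), the keratins of simple epithelia, were present throughout, as were VIM and FN1. The epithelial marker EPCAM had at most 2 counts in any library, and CDH1 was not found by symbol among the genes counted. Of the markers of differentiated pigment epithelium, BEST1, OTX2 and MITF had at least 97 counts in every library, while RPE65, RLBP1 and TYRP1 had at most 4. The pigment gene PMEL had 7 to 29 counts, and TYR and DCT were not found by symbol. The visual cycle genes RPE65 and RLBP1 and the pigment gene TYRP1 were thus at or near 0 in this line. Markers of leukocytes, endothelium and neurons had at most 26 counts in any library. DMSO replicate 1 stood apart from the other libraries in these genes, as described below, and results are therefore given with and without it.

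Promoter windows were shown for 6 members, at least 1 from each complex, because the regulators described further on are known to bind near the starts of these genes. They were picked for holding NRF1 or ETS letters, and NRF1, ETS or YY1 letters were found in 31 of the 69 members with a window (44.9%, against 11.2% of all genes with a window). All genes here include those not tested. The share of tested genes with any of these letters was not counted, but each alone was more frequent in tested genes, as given below. The sequences come from RefSeq (GRCh38.p14), read 5′ to 3′ on the strand of the gene, and end with the base before the annotated start. Windows were found by symbol for 69 of the 85 members, with the newer names used for ATP5MD, ATP5MPL and NDUFA4. In this display capitals mark 8-letter matches, on either strand, to GCGCATGC, the core bound by NRF1, or CCGGAAGT, the core bound by ETS factors such as GABP.
NDUFB4 promoter, chr3:120596131-120596335, plus strand: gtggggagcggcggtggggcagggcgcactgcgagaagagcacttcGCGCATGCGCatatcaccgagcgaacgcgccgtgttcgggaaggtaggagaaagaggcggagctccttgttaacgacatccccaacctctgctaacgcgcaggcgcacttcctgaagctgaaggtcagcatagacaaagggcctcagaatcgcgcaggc
SDHB promoter, chr1:17054033-17054237, minus strand: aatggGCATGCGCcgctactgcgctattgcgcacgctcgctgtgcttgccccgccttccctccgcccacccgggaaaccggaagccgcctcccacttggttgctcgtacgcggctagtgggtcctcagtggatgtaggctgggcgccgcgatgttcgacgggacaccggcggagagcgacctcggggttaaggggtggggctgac
UQCR11 promoter, chr19:1605463-1605667, minus strand: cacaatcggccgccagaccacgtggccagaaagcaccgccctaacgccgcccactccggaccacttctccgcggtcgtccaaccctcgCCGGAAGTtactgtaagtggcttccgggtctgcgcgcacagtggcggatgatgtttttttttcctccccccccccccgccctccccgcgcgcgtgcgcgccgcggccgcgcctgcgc
COX5B promoter, chr2:97645857-97646061, plus strand: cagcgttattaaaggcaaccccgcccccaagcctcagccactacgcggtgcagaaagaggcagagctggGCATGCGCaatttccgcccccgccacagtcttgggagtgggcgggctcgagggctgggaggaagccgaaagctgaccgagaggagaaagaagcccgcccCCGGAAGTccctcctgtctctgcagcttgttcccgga
COX8A promoter, chr11:63974415-63974619, plus strand: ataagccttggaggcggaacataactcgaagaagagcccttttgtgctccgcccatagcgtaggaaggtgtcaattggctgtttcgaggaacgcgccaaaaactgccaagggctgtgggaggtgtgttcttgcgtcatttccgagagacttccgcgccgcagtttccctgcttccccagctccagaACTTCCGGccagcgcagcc
ATP5PD promoter, chr17:75046970-75047174, minus strand: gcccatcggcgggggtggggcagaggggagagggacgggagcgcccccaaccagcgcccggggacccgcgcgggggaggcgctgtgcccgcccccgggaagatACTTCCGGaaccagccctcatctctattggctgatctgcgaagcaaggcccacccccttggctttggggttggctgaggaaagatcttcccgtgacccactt
NDUFB4 carried 2 overlapping NRF1 matches, 1 on each strand, 159 and 157 bases before the start. In COX5B an NRF1 match 136 bases and an ETS match 37 bases before the start lay in the same window. SDHB carried an NRF1 match 200 bases before the start. The ETS matches of UQCR11, ATP5PD and COX8A began 117, 102 and 19 bases before it.

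Over the whole window of 300 bases (250 before and 50 after the start, any of a gene's listed starts), GCGCATGC was found in 14 of the 69 members (20.3%), in 3.68% of the 27305 genes with a window and in 6.68% of the 9724 tested genes with a window. CCGGAAGT was found in 12 members (17.4%), in 4.95% of all genes and in 10.4% of the tested genes. AAGATGGC, the core bound by YY1, was found in 12 members (17.4%), in 3.52% of all genes and in 6.75% of the tested genes, and 10 of its 13 matches in members lay after the start. SDHD, COX5B and ATP5PF held both the NRF1 and the ETS letters. A match is a run of letters and no measured binding, and the 16 members with no window were not searched.

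**Figure D1:**
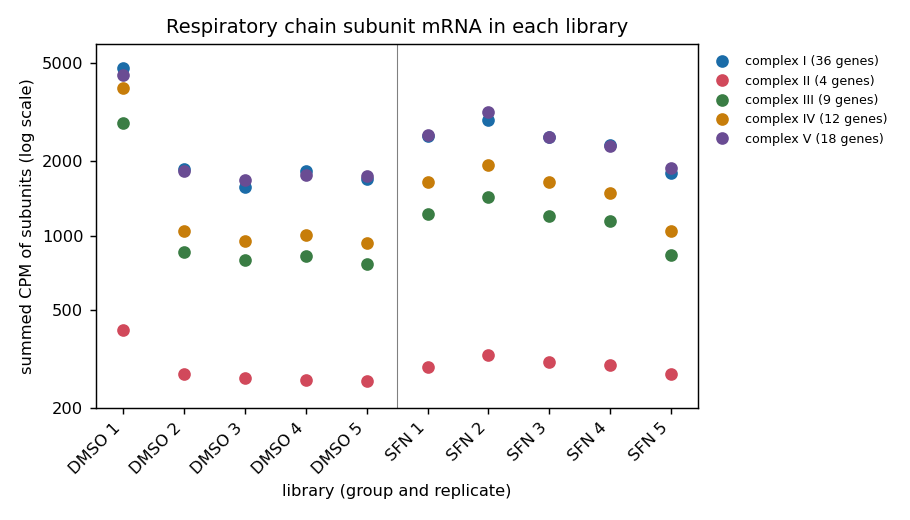
Summed CPM (TMM-scaled counts, log scale) of the tested subunits of each complex in each of the 10 libraries; each point is 1 library and 1 complex. DMSO replicate 1 is the highest library for every complex, DMSO replicates 2 to 5 lie close together, and SFN replicates 1 to 4 lie above them.

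The transcripts of all 5 complexes moved together from library to library. Values are CPM (counts scaled to a fixed library total) after TMM scaling, which compares libraries by the bulk of their genes. The 79 subunits summed to 16492 CPM in DMSO replicate 1, and to 5856, 5273, 5678 and 5388 CPM in DMSO replicates 2 to 5. In SFN they summed to 8282, 9829, 8177, 7575 and 5838 CPM in replicates 1 to 5. SFN replicates 1 to 4 thus lay above DMSO replicates 2 to 5 and below DMSO replicate 1, and SFN replicate 5 lay within the range of DMSO replicates 2 to 5. Complex IV summed to 3980 CPM in DMSO replicate 1, between 934 and 1039 in the other DMSO libraries, and between 1046 and 1940 in SFN. Complex II varied least, with 413 CPM in DMSO replicate 1, 255 to 274 in the other DMSO libraries and 275 to 327 in SFN.

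With all 10 libraries, few of these genes passed the test between SFN and DMSO. A gene that did not pass is not thereby shown to be unchanged. Only NDUFA13 and ATP5F1B, 2 of 79 members, passed an adjusted p of 0.05 as higher in SFN by edgeR's quasi-likelihood test, against 9.07% of all genes tested, and 0 were lower, against 13.9%. At an unadjusted p under 0.05, 7 members were higher and 0 lower, where 1948 of all 13378 genes tested were higher and 2676 lower. DESeq2 called 6 members higher and 0 lower, and of all genes 1635 higher and 2121 lower. The log2 fold change (SFN minus DMSO) was positive in 50 of the 79. The median over the members lay 0.13 above that of all genes tested, and by complex 0.12 above it for I, 0.20 for II, 0.20 for IV and 0.25 for V, and 0.08 below it for III. In 3 members, UQCRC2, ATP5F1A and ATP5F1B, every SFN library lay above every DMSO library, which held for 8.78% of all genes. Of all genes called, 39.5% were higher in SFN, and 27.5% with scaling by total counts only, a scaling that moved the median log2 fold change of all genes to -0.11.

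Without DMSO replicate 1 the picture was different. Then 64 of the 79 members were higher in SFN and 1, NDUFS1, was lower by the same test, where 22.5% of all genes tested were higher and 23.5% lower. By complex the number higher was 28 of 36 (I), 3 of 4 (II), 6 of 9 (III), 11 of 12 (IV) and 16 of 18 (V). The median over the members lay 0.59 above that of all genes, and by complex 0.58, 0.43, 0.39, 0.71 and 0.63 above it in the same order. Every SFN library lay above every remaining DMSO library for 27 members, against 16.6% of all genes. The largest log2 fold change without that library was 1.02 and the smallest -0.25, so that no member but NDUFA13 and COX6A1 reached a doubling.

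**Figure D2:**
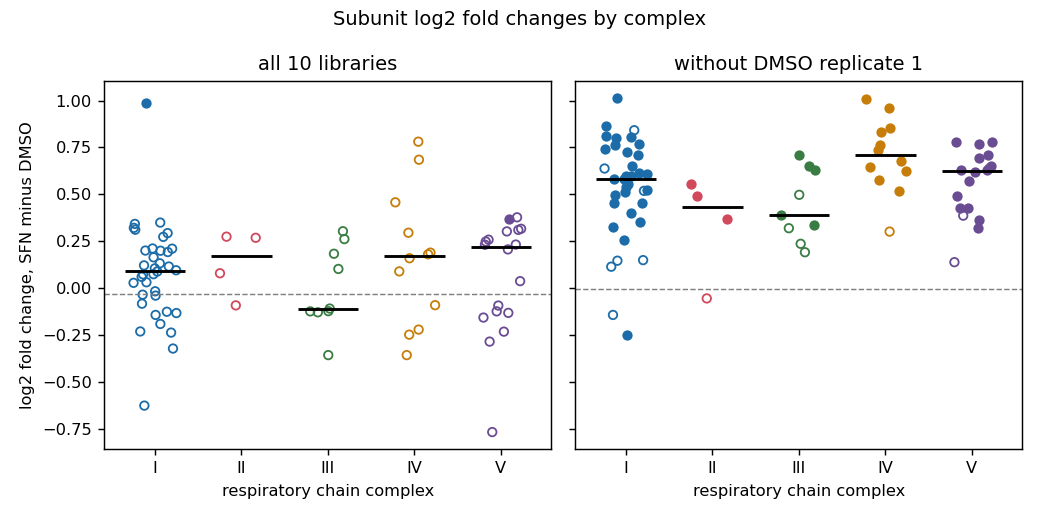
Log2 fold change (SFN minus DMSO) of the 79 tested subunits by complex, with all 10 libraries on the left and without DMSO replicate 1 on the right; filled points passed an adjusted p of 0.05, black bars are medians of a complex and the dashed line is the median of all genes tested. On the left 2 points are filled, and on the right 65 are, 64 of them above 0.

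The distance of DMSO replicate 1 from the other DMSO libraries varied with transcript length. It was the highest DMSO library for 73 of 79 members and the highest of all 10 for 65. The ratio of its CPM to the median of DMSO replicates 2 to 5 had a median of 2.93 over the members and ran from 0.655 for NDUFS1 to 7.34 for ATP5ME. Across the 79 members this ratio had a Spearman correlation of -0.41 with the length of the GENCODE canonical transcript, and across 13324 genes of -0.51; these are descriptions across genes, which share their libraries and are not replicates. A straight line of log2 CPM (less its average over the libraries) on log2 length had a slope of -0.271 in DMSO replicate 1, of 0.0872 to 0.148 in the other DMSO libraries, and in SFN of -0.183 in replicate 2 to 0.109 in replicate 5. Replicate 2 was the highest SFN library for 69 members and replicate 5 the lowest for 70, and these were also the SFN libraries of the lowest and the highest length slope.

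The members are short: 47 of the 79 have a canonical transcript of at most 1000 bases. Genes of that length were called higher in SFN in 6.17% of cases with all libraries, and in 37.6% without DMSO replicate 1. In that second comparison 38 of the 47 short members were higher, and so were 26 of the 32 longer ones. The log2 fold change without DMSO replicate 1 had a Spearman correlation with length of -0.26 across members and -0.35 across all genes. A smooth offset for length was also fitted to each library with DMSO replicate 1 left out, a comparison added after the values were seen. With it, 41 of 79 members were higher and 0 lower, against 25.5% of all genes higher and 3030 of 13509 lower. The canonical length is not always that of the transcript in use: UQCRB is listed at 8459 bases, but its ratio in DMSO replicate 1, 4.90, lay among those of the short members. The part that length and library quality play in the member values was not tested beyond these fits.

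**Figure D3:**
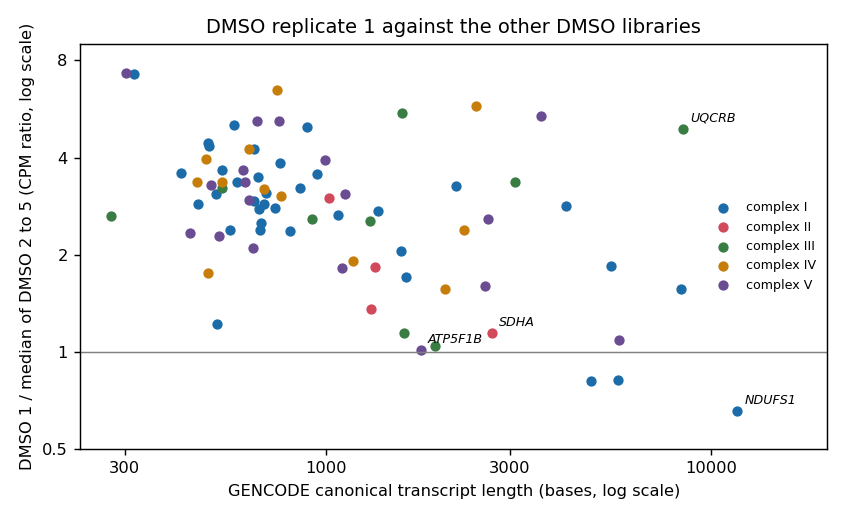
Ratio of CPM in DMSO replicate 1 to the median of DMSO replicates 2 to 5 (log scale) against canonical transcript length in bases (log scale) for the 79 tested subunits, coloured by complex. Most members up to 1000 bases lie between 2 and 8, while NDUFS1, the longest at 11660 bases, is lowest at 0.655. UQCRB, at 8459 bases, is at 4.90.

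Complex I has 7 tested core subunits, which carry its flavin, iron-sulfur clusters and ubiquinone site, and 29 tested accessory subunits. With all libraries 0 of 7 core and 1 of 29 accessory members were higher. Without DMSO replicate 1, 4 of 7 core subunits were higher and 1 lower, and 24 of 29 accessory subunits were higher and 0 lower. The medians lay 0.52 and 0.59 above that of all genes.

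NDUFS1, the largest core subunit, holds iron-sulfur clusters of the electron path (chr2:206114817-206159509, minus strand, GRCh38). It was singled out after its values were seen. It measured 125, 191, 191, 195 and 189 CPM in DMSO replicates 1 to 5, and 157, 140, 155, 173 and 184 CPM in SFN replicates 1 to 5. DMSO replicate 1 was the lowest of the 10 libraries, the reverse of its place in most members, and every SFN library lay below DMSO replicates 2 to 5. Its log2 fold change was -0.14 (SE 0.14, adjusted p = 0.52) with all libraries and -0.25 (SE 0.09, adjusted p = 0.028) without DMSO replicate 1. With the length offset the latter became 0.07 (adjusted p = 0.44), so the call was not made with that offset.

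NDUFA13, also known as GRIM-19, is an accessory subunit needed for assembly of the complex (chr19:19515736-19529054, plus strand). It rose from 0.690 ± 0.252 to 1.37 ± 0.352 CPM (SD, n = 5 each; log2 fold change 0.99, SE 0.31, adjusted p = 0.038). The counts behind this were 12, 11, 19, 12 and 7 in DMSO replicates 1 to 5 and 18, 11, 22, 21 and 25 in SFN. The groups overlapped, since DMSO replicate 3 (1.06 CPM) lay above SFN replicate 2 (0.949 CPM). A readthrough gene, ENSG00000258674, lies over it on the same strand, with 0 to 22 counts per library and a mean of 0.128 CPM in DMSO and 1.08 CPM in SFN. How reads shared by both were counted is not given in the sources used here, so the NDUFA13 value is uncertain. A log2 fold change of 1.01 (SE 0.34, adjusted p = 0.024) was found without DMSO replicate 1, and with the length offset as well it was 0.68 (adjusted p = 0.16). The call was also lost with scaling by total counts (adjusted p = 0.057), with no low-count filter (0.11), and when any of DMSO replicates 2, 4 and 5 or SFN replicates 1, 3, 4 and 5 was left out (adjusted p from 0.05 to 0.099).

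NDUFS5, an accessory subunit at the intermembrane face (chr1:39026318-39034636, plus strand), measured 1180, 295, 204, 288 and 253 CPM in DMSO and 490, 495, 463, 409 and 301 CPM in SFN. All SFN libraries lay above DMSO replicates 2 to 5 and below DMSO replicate 1. Its log2 fold change was -0.04 (SE 0.43, adjusted p = 0.96) with all libraries and 0.73 (SE 0.14, adjusted p = 0.0011) without DMSO replicate 1. NDUFB1, a small accessory subunit of the membrane arm (chr14:92116122-92121917, minus strand), had the lowest log2 fold change of the complex with all libraries, -0.62 (SE 0.57, adjusted p = 0.49). Its values were 181, 30.4, 24.3, 25.8 and 23.9 CPM in DMSO and 37.5, 50.3, 40.9, 36.1 and 20.4 CPM in SFN. The direction turned without DMSO replicate 1, to 0.50 (SE 0.19, adjusted p = 0.044), and SFN replicate 5 still lay below all DMSO libraries.

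Not all of complex I passed the test in that comparison. NDUFA10 (log2 fold change 0.15, adjusted p = 0.21) and NDUFV3 (-0.14, adjusted p = 0.16), with canonical transcripts of 4855 and 5725 bases, did not pass the test without DMSO replicate 1. Their CPM in that library was 0.810 and 0.818 times the median of the other DMSO libraries. NDUFA3 (0.638), NDUFA9 (0.147), NDUFB8 (0.115), NDUFS3 (0.519) and NDUFV2 (0.842) did not pass it either. Of these, NDUFA3 and NDUFV2 lay above the complex I median of 0.581 and NDUFS3 near it, so they missed the threshold without a low log2 fold change. NDUFB8 rested on 8 to 39 counts per library and NDUFV2 on 2 to 34. NDUFV2 has a processed copy, NDUFV2P1, which had 204 counts over all libraries, the most of the 38 pseudogene rows, and reads could be split between them.

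Complex II is encoded wholly in the nucleus, and its subunits differed from each other. SDHA, the flavoprotein that oxidises succinate in the citric acid cycle (chr5:218303-257082, plus strand), measured 183, 170, 163, 157 and 146 CPM in DMSO and 156, 160, 158, 150 and 144 CPM in SFN. The groups overlapped almost entirely. This gave a log2 fold change of -0.09 (SE 0.09, adjusted p = 0.54) with all libraries and -0.05 (SE 0.07, adjusted p = 0.57) without DMSO replicate 1. SDHD, a membrane anchor that binds ubiquinone (chr11:112086824-112120016, plus strand), measured 27.3, 16.6, 12.4, 13.3 and 16.6 CPM in DMSO and 17.3, 24.2, 22.8, 22.1 and 17.7 CPM in SFN. For SDHD the log2 fold change was 0.28 (adjusted p = 0.40) with all libraries and 0.49 (adjusted p = 0.0085) without DMSO replicate 1, and every SFN library lay above the remaining DMSO libraries. SDHB, the iron-sulfur subunit whose promoter is printed above, rose from 49.4 ± 1.11 CPM in DMSO replicates 2 to 5 (SD, n = 4) to 72.8 ± 13.3 CPM in SFN (SD, n = 5; log2 fold change 0.55, adjusted p = 0.0021), while DMSO replicate 1 held 147 CPM and the log2 fold change with all libraries was 0.08 (adjusted p = 0.89).

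In complex III, DMSO replicate 1 lay near the other DMSO libraries for UQCRC1 and UQCRC2 and well above them for the third tested core subunit and the accessory subunits. UQCRC1, a large core protein that faces the matrix (chr3:48599002-48610976, minus strand), measured 152, 143, 129, 136 and 125 CPM in DMSO and 176, 183, 180, 169 and 141 CPM in SFN. Only SFN replicate 5 reached into the DMSO range. Its log2 fold change was 0.30 (SE 0.10, adjusted p = 0.058) with all libraries and 0.34 (SE 0.09, adjusted p = 0.0072) without DMSO replicate 1. UQCRC2, its partner core protein (chr16:21953288-21983660, plus strand), measured 72.9, 71.0, 63.0, 74.8 and 69.3 CPM in DMSO and 79.8, 87.9, 77.5, 75.8 and 77.7 CPM in SFN. Although no SFN library reached down to a DMSO library, the log2 fold change of 0.18 (SE 0.09, adjusted p = 0.18) did not pass the test, nor did the 0.19 without DMSO replicate 1 (adjusted p = 0.063). UQCRFS1, the Rieske iron-sulfur subunit (chr19:29205320-29213151, minus strand), was singled out after its values were seen. It measured 201, 62.5, 61.2, 58.1 and 57.8 CPM in DMSO and 85.5, 138, 98.5, 88.7 and 61.6 CPM in SFN. Its ratio in DMSO replicate 1, 3.36, lay above those of UQCR10 (2.58), UQCR11 (2.54), UQCRH (3.21) and UQCRHL (2.63). It lay below those of UQCRB (4.90) and UQCRQ (5.49). The UQCRFS1 log2 fold change was 0.10 (adjusted p = 0.88) with all libraries and 0.65 (adjusted p = 0.0061) without DMSO replicate 1.

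The accessory subunits UQCRQ and UQCRB are small proteins near the ubiquinone-binding part of the complex. Like UQCRFS1, and unlike UQCRC1 and UQCRC2, they had values that depended strongly on DMSO replicate 1. UQCRB measured 1400, 296, 263, 300 and 274 CPM in DMSO and 488, 591, 472, 440 and 334 CPM in SFN. Its log2 fold change went from -0.12 (SE 0.45, adjusted p = 0.88) to 0.71 (SE 0.13, adjusted p = 0.00055) when DMSO replicate 1 was left out. UQCRQ (chr5:132866630-132868847, plus strand) measured 554, 102, 136, 97.6 and 100 CPM in DMSO and 159, 211, 159, 161 and 84.1 CPM in SFN, with SFN replicate 5 the lowest of all 10 libraries. Its log2 fold change was -0.36 (SE 0.48, adjusted p = 0.66) with all libraries, the lowest of the complex, and 0.50 (SE 0.20, adjusted p = 0.05, short of the threshold) without DMSO replicate 1. UQCRH, the hinge protein that docks cytochrome c, and UQCRHL, a nearly identical gene on the same chromosome, cannot be fully separated by reads and are uncertain. UQCRH measured 386, 140, 118, 122 and 107 CPM in DMSO and 192, 170, 164, 169 and 107 CPM in SFN, and UQCRHL lay between 2.66 and 8.03 CPM in all libraries. Without DMSO replicate 1 the log2 fold change was 0.39 for UQCRH (adjusted p = 0.034) and 0.24 for UQCRHL (adjusted p = 0.39), and with all libraries -0.12 (adjusted p = 0.84) and -0.11 (adjusted p = 0.85).

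Complex IV had the highest median of the 5 complexes without DMSO replicate 1. COX4I1, a subunit that takes part in regulation by ATP (chr16:85798633-85807068, plus strand), measured 806, 285, 266, 264 and 246 CPM in DMSO and 446, 551, 435, 410 and 290 CPM in SFN. Every SFN library lay above DMSO replicates 2 to 5. The fitted log2 fold change was 0.19 (SE 0.33, adjusted p = 0.74) with all libraries and 0.68 (SE 0.14, adjusted p = 0.0014) without DMSO replicate 1, and it was 0.34 (adjusted p = 0.0008) with the length offset as well. COX6C, an accessory subunit with the lowest log2 fold change of the complex with all libraries (-0.36, SE 0.55, adjusted p = 0.70), measured 1200, 188, 187, 184 and 155 CPM in DMSO and 333, 382, 321, 273 and 186 CPM in SFN. Without DMSO replicate 1 its log2 fold change was 0.74 (SE 0.16, adjusted p = 0.002). COX8A (chr11:63974620-63976543, plus strand), a small membrane subunit whose promoter is printed above, rested on 34 to 87 counts per library. It measured 4.17, 2.05, 1.90, 3.07 and 2.72 CPM in DMSO and 2.80, 7.51, 4.91, 4.66 and 4.10 CPM in SFN, with a log2 fold change of 0.78 (SE 0.29, adjusted p = 0.072) with all libraries and 0.96 (SE 0.26, adjusted p = 0.0082) without DMSO replicate 1.

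Several complex IV subunits come in tissue-dependent pairs. Both forms were analysed for COX6B, COX7A and COX8, and there most reads came from the form common to most tissues in both groups. The partner of COX6A1 was not analysed, so nothing can be said of that pair. COX6A1 measured 28.9, 9.52, 6.65, 9.88 and 7.64 CPM in DMSO and 16.0, 32.4, 15.1, 12.3 and 10.2 CPM in SFN. Without DMSO replicate 1 every SFN library lay above every DMSO library, with a log2 fold change of 1.01 (SE 0.27, adjusted p = 0.0084). COX6B1 had a log2 fold change of 0.83 (adjusted p = 0.0058) without DMSO replicate 1, while its testis form COX6B2 was at most 0.187 CPM. COX7A2 had 0.65 (adjusted p = 0.0018), while its muscle form COX7A1 had reads in 1 of 10 libraries, at 0.0456 CPM, and COX8C, the testis form of COX8A, was at most 0.521 CPM. COX7A2L, a factor that joins complexes III and IV into supercomplexes, had 0.52 (adjusted p = 0.0055), and COX7B had 0.76 (adjusted p = 0.0023). With all libraries none of COX6A1, COX6B1, COX7A2, COX7A2L and COX7B passed the test, with log2 fold changes from -0.25 for COX7B to 0.46 for COX6A1.

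NDUFA4 was first assigned to complex I and is now counted as a complex IV subunit (chr7:10931943-10940153, minus strand). Its log2 fold change lay above the complex IV median and below the value of COX8A, both with all libraries and without DMSO replicate 1. NDUFA4 measured 32.9, 21.2, 14.0, 20.7 and 23.6 CPM in DMSO and 33.9, 53.8, 32.6, 35.3 and 25.3 CPM in SFN. This gave a log2 fold change of 0.69 (SE 0.24, adjusted p = 0.056) with all libraries and 0.85 (SE 0.19, adjusted p = 0.0026) without DMSO replicate 1, where no libraries overlapped. Its paralog NDUFA4L2, known as a target of hypoxia signalling, lay between 0 and 0.776 CPM and was not tested.

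In complex V, ATP5F1B was called with all libraries, and ATP5F1A came close to the threshold. ATP5F1B, the catalytic beta subunit (chr12:56638175-56645984, minus strand), measured 321, 325, 326, 303 and 311 CPM in DMSO and 402, 500, 382, 387 and 375 CPM in SFN. No SFN library reached down to a DMSO library, and DMSO replicate 1 lay within the other DMSO libraries. It rose from 317 ± 9.77 to 409 ± 51.8 CPM (SD, n = 5 each; log2 fold change 0.37, SE 0.11, adjusted p = 0.026), and by the same amount without DMSO replicate 1 (0.37, adjusted p = 0.005). The call was lost when DMSO replicate 2, 4 or 5 or SFN replicate 1 was left out (adjusted p = 0.057, 0.07, 0.061 and 0.057), and with scaling by total counts (0.095), quantile normalization in limma-voom (0.095) or no low-count filter (0.11). ATP5F1A, the alpha subunit that alternates with beta in the catalytic head (chr18:46080248-46104334, minus strand), measured 379, 338, 360, 350 and 347 CPM in DMSO and 436, 524, 449, 386 and 392 CPM in SFN. Its groups did not overlap either, and the log2 fold change of 0.30 (SE 0.11) had an adjusted p of 0.066 with all libraries and of 0.012, at 0.32, without DMSO replicate 1.

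**Figure D4:**
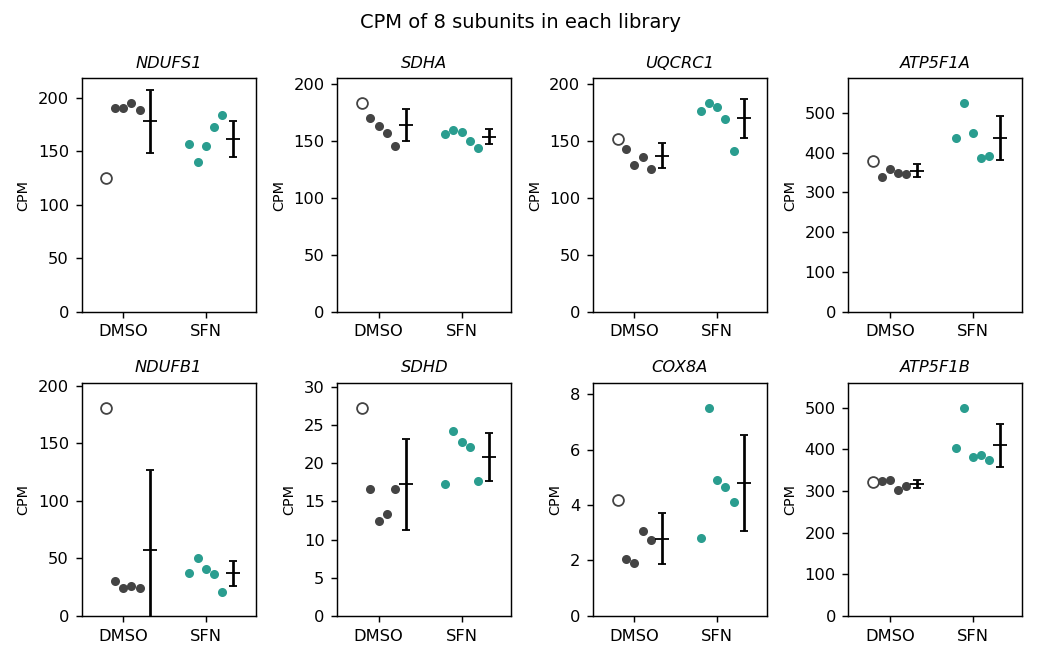
CPM of 8 subunits in each library, with DMSO replicate 1 as the open circle; bars are mean and SD over 5 libraries, and the axis starts at 0, which cuts the lower bar of NDUFB1. DMSO replicate 1 lies far above the rest in NDUFB1 and slightly above the highest SFN library in SDHD, below them in NDUFS1 and within the other DMSO libraries in ATP5F1B.

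The small membrane subunits of the ATP synthase again depended on DMSO replicate 1. ATP5ME, which helps to shape the dimer (chr4:672436-674330, minus strand), measured 206, 31.6, 28.1, 28.0 and 27.0 CPM in DMSO and 44.3, 48.4, 42.4, 35.1 and 18.1 CPM in SFN. SFN replicates 1 to 4 lay above DMSO replicates 2 to 5, and SFN replicate 5 was the lowest of all. Its log2 fold change was -0.77 (SE 0.59, adjusted p = 0.40) with all libraries, the lowest of the members, and 0.39 (SE 0.21, adjusted p = 0.14) without DMSO replicate 1. ATP5MF, another subunit of the membrane part (chr7:99448475-99466186, minus strand), had the highest log2 fold change of the complex with all libraries, 0.38 (SE 0.29, adjusted p = 0.41). It measured 16.1, 7.79, 7.04, 5.60 and 6.75 CPM in DMSO and 9.84, 17.3, 10.9, 10.2 and 7.98 CPM in SFN. The ATP5MF libraries did not overlap without DMSO replicate 1, and the log2 fold change was 0.71 (SE 0.19, adjusted p = 0.0089).

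The paralogs ATP5MC1, ATP5MC2 and ATP5MC3 encode the same mature c subunit, which forms the rotor ring, and their values differed. ATP5MC1 (chr17:48892765-48895871, plus strand) measured 45, 23.0, 15.9, 19.9 and 23.8 CPM in DMSO and 21.3, 33.5, 19.4, 23.9 and 16.5 CPM in SFN, with a log2 fold change of 0.14 (SE 0.18, adjusted p = 0.55) without DMSO replicate 1. ATP5MC2 (chr12:53632726-53677408, minus strand) measured 67.1, 23.5, 19.9, 21.9 and 25.9 CPM in DMSO and 32.1, 66.2, 39.7, 32.5 and 26.5 CPM in SFN, with 0.78 (SE 0.21, adjusted p = 0.0086). ATP5MC3 (chr2:175176258-175181710, minus strand) measured 67.3, 42.9, 33.4, 41.2 and 44.8 CPM in DMSO and 50, 74.5, 56.7, 50.2 and 43.2 CPM in SFN, with 0.43 (SE 0.14, adjusted p = 0.023). ATP5MC1 and ATP5MC2 thus lay on different sides of the threshold in that comparison, but the difference between them was not tested. With all libraries none of these paralogs passed the test, with log2 fold changes of -0.16 (adjusted p = 0.74), 0.32 (adjusted p = 0.59) and 0.26 (adjusted p = 0.40).

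Of the 54 tested assembly factors that build these complexes, 5 were lower in SFN with all libraries, a smaller share than the 13.9% of all genes tested, and 0 were higher. The same 5 were lower without DMSO replicate 1, where 18 of the 54 were higher, beside 22.5% of all genes higher and 23.5% lower. None of the 18 factors of complex I, 6 of complex III or 4 of complex V was among those that fell: 1 belonged to complex II and 4 to complex IV. Among the complex I factors the log2 fold change ran from -0.22 for NDUFAF1 (adjusted p = 0.48) to 0.57 for NDUFAF3 (adjusted p = 0.064), and without DMSO replicate 1 the values of these factors were -0.01 (adjusted p = 0.95) and 0.70 (adjusted p = 0.0045). The median over the 54 lay 0.01 above that of all genes with all libraries and 0.23 above it without DMSO replicate 1.

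SDHAF1, which brings iron-sulfur clusters to SDHB (chr19:35995188-35996312, plus strand), measured 9.96, 4.47, 3.80, 2.05 and 3.61 CPM in DMSO and 0.656, 1.21, 1.19, 0.945 and 1.06 CPM in SFN. The groups did not overlap, and the log2 fold change was -2.24 (SE 0.40, adjusted p = 0.0018) with all libraries and -1.81 (SE 0.27, adjusted p = 0.00011) without DMSO replicate 1. It rested on 11 to 16 counts in each SFN library. COA7, a factor of complex IV also called RESA1 (chr1:52684449-52698347, minus strand), measured 37.9, 60.3, 61.0, 60.1 and 58.1 CPM in DMSO and 19.7, 15.3, 19.7, 25.3 and 26.1 CPM in SFN. Here DMSO replicate 1 was the lowest DMSO library and still lay above every SFN library. The COA7 log2 fold change was -1.39 (SE 0.18, adjusted p = 0.00018) and without DMSO replicate 1 -1.50 (SE 0.13, adjusted p = 1.1e-06).

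PET117 (chr20:18137863-18143169, plus strand), a small factor of complex IV, measured 13.6, 11.3, 9.90, 10.4 and 9.29 CPM in DMSO and 6.02, 3.62, 4.84, 3.98 and 6.35 CPM in SFN, again without overlap. The fitted value for PET117 was a log2 fold change of -1.13 (SE 0.18, adjusted p = 0.00093), and -1.04 (adjusted p = 0.00019) without DMSO replicate 1. TACO1, an activator of translation of the mitochondrially encoded COX1 (chr17:63600882-63608365, plus strand), fell from 28.2 ± 4.68 to 17.5 ± 1.80 CPM (SD, n = 5 each; log2 fold change -0.69, adjusted p = 0.0032, and -0.60, adjusted p = 0.00058, without DMSO replicate 1). COX10, which makes haem O on the way to haem A for complex IV (chr17:14069490-14231736, plus strand), measured 6.73, 14.2, 10.9, 15.8 and 13.6 CPM in DMSO and 7.03, 5.95, 7.37, 7.83 and 8.26 CPM in SFN. DMSO replicate 1 lay inside the SFN range, and the log2 fold change was -0.75 (SE 0.21, adjusted p = 0.023) with all libraries and -0.91 (SE 0.14, adjusted p = 0.00012) without it.

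The regulators known to act on these genes moved in both directions. Of 15 tested, GABPA, GABPB1 and YY1 were higher and PPARGC1B, PPRC1 and POLRMT lower, beside 9.07% higher and 13.9% lower of all genes. These 6 calls were also made without DMSO replicate 1, where GABPB2 was higher (log2 fold change 0.61, adjusted p = 0.0011) and SP1 lower (-0.38, adjusted p = 0.044) as well, beside 22.5% and 23.5% of all genes. GABPB1, the partner that carries the activating domain of GABP (chr15:50275389-50355408, minus strand), measured 38.6, 28.9, 31.3, 31.1 and 35.7 CPM in DMSO and 81.0, 74.5, 84.1, 76.7 and 72.2 CPM in SFN (log2 fold change 1.23, SE 0.11, adjusted p = 1.2e-05, and 1.29, adjusted p = 1.4e-07, without DMSO replicate 1). All SFN libraries lay far above all DMSO libraries. GABPA, the DNA-binding partner (chr21:25734570-25772460, plus strand), measured 49.1, 61.8, 57.9, 61.1 and 65.5 CPM in DMSO and 83.6, 63.6, 90.6, 84.4 and 101 CPM in SFN (log2 fold change 0.52, SE 0.13, adjusted p = 0.015, and 0.46, adjusted p = 0.0055, without DMSO replicate 1), with SFN replicate 2 inside the DMSO range. YY1 rose from 100 ± 6.81 to 145 ± 7.28 CPM (SD, n = 5 each; log2 fold change 0.53, SE 0.09, adjusted p = 0.0012, and 0.50, adjusted p = 0.00015, without DMSO replicate 1). NRF1 itself (-0.17, adjusted p = 0.40, and -0.16, adjusted p = 0.30, without DMSO replicate 1) and TFAM, which packages and transcribes mitochondrial DNA (0.07, adjusted p = 0.69, and 0.09, adjusted p = 0.41), did not pass the test.

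PPARGC1B, which encodes the coactivator PGC-1 beta (chr5:149730298-149855022, plus strand), had the lowest log2 fold change of the 15 regulators. It measured 2.93, 4.47, 5.53, 4.10 and 4.38 CPM in DMSO and 0.358, 0.0863, 0.149, 0.405 and 0.353 CPM in SFN, which were 47 to 99 counts per library against 1 to 6. The fitted log2 fold change was -3.90 (SE 0.33, adjusted p = 8.8e-06), and -4.01 (adjusted p = 1.9e-07) without DMSO replicate 1. PPRC1, a coactivator of the same family, measured 40.3, 88.0, 98.5, 83.7 and 85.5 CPM in DMSO and 31.9, 33.7, 33.8, 36.7 and 42.7 CPM in SFN, so that DMSO replicate 1 lay inside the SFN range (log2 fold change -1.15, SE 0.21, adjusted p = 0.0019, and -1.32, adjusted p = 1.9e-07, without it). POLRMT, the mitochondrial RNA polymerase (chr19:617221-633537, minus strand), fell from 28.6 ± 3.91 to 13.0 ± 1.31 CPM (SD, n = 5 each; log2 fold change -1.14, SE 0.13, adjusted p = 7.4e-05, and -1.22, adjusted p = 7.8e-07, without DMSO replicate 1).

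**Figure D5:**
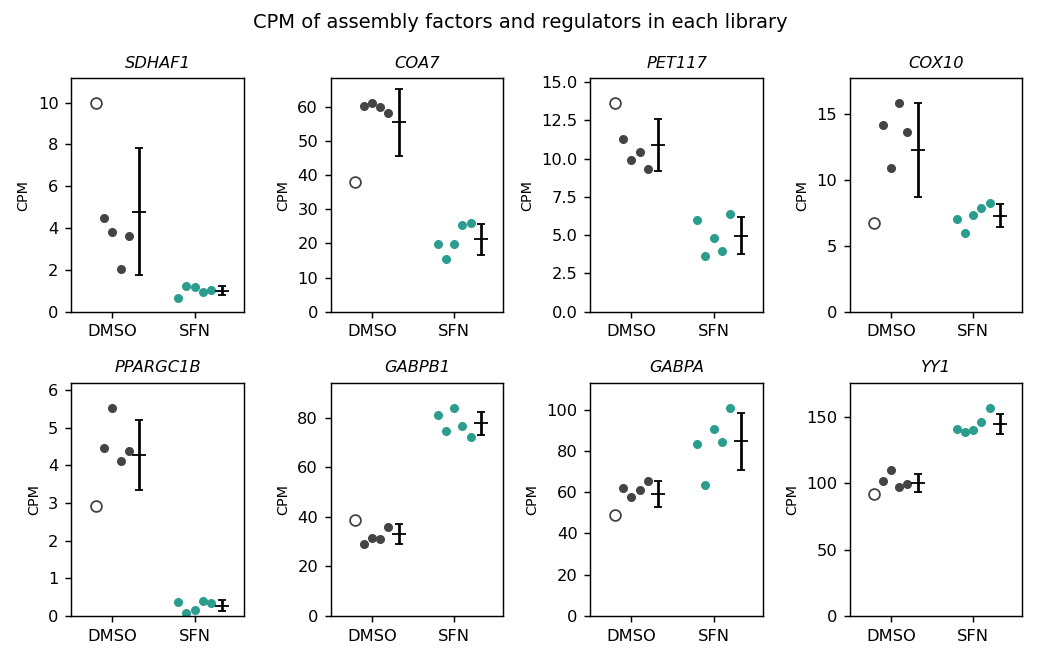
CPM of 4 assembly factors (top row) and 4 regulators (bottom row) in each library, with DMSO replicate 1 as the open circle; bars are mean and SD over 5 libraries and each axis starts at 0. SFN libraries lie below DMSO libraries in SDHAF1, COA7, PET117 and PPARGC1B and above them in GABPB1 and YY1, while DMSO replicate 1 lies inside the SFN range in COX10.

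The members with the letters bound by these factors were set beside the others only as a description. Without DMSO replicate 1, 9 of 12 tested members with the ETS letters were higher in SFN, 12 of 14 with the NRF1 letters and 8 of 11 with the YY1 letters, beside 64 of all 79. Their median log2 fold changes were 0.565, 0.575 and 0.617, beside 0.583 over all members.

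The mobile and mitochondrial parts of the chain were compared in the same way. CYCS, which encodes the cytochrome c that shuttles electrons between complexes III and IV, had a log2 fold change of 0.08 (adjusted p = 0.85) with all libraries and 0.41 (adjusted p = 0.0063) without DMSO replicate 1. CYC1, the cytochrome c1 subunit of complex III whose symbol the rule does not take in, had 0.23 (adjusted p = 0.36) and 0.14 (adjusted p = 0.43). Of the 13 subunits encoded in mitochondrial DNA, 0 were higher and 1 lower with all libraries, against 9.07% higher and 13.9% lower of all genes, and the same counts were found without DMSO replicate 1, against 22.5% and 23.5%. Their median without DMSO replicate 1 lay 0.125 below that of all genes. With the length offset as well 5 of the 13 were lower and 0 higher, and their median lay 0.34 below that of all genes. The offset follows the length trend of all genes, and whether it suits these 13 was not tested. In that fit 3030 of 13509 genes were lower and 25.5% higher. The gene lower with all libraries was MT-ATP8, a subunit of the ATP synthase, which fell from 170 ± 45.5 to 108 ± 21.6 CPM (SD, n = 5 each; log2 fold change -0.66, SE 0.21, adjusted p = 0.042, and -0.61, adjusted p = 0.018, without DMSO replicate 1). It overlaps MT-ATP6 on the same strand, so its reads are uncertain. DMSO replicate 1 was the highest DMSO library for 3 of these 13, against 73 of the 79 nuclear members. Here DMSO replicate 3 stood apart instead. The 13 summed to 8487 CPM in it, to 13803 to 15094 in the other DMSO libraries and to 12133 to 16518 in SFN. DMSO replicate 3 was kept in each of the fits given for these genes, and its effect on their values was not tested.

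The ribosomal protein genes, other large sets of housekeeping genes, were read beside the same shares of all genes: 9.07% higher and 13.9% lower with all libraries, and 22.5% higher and 23.5% lower without DMSO replicate 1. Of 78 tested cytosolic ribosomal protein genes, 0 were higher with all libraries and 70 without DMSO replicate 1, RPL36A was lower in both (log2 fold change -1.09, adjusted p = 0.03, and -0.66, adjusted p = 0.006), and DMSO replicate 1 was the highest DMSO library for 77. Of 78 mitochondrial ribosomal protein genes, 3 were higher (MRPL18, MRPS10 and MRPL3) and 1, MRPS26 (log2 fold change -0.97, adjusted p = 0.002), lower with all libraries, and 34 were higher and 3 lower without it. With the length offset and without DMSO replicate 1, 54 cytosolic ribosomal protein genes were higher and 2 lower, and 23 mitochondrial ones were higher and 9 lower. In that fit 25.5% of all genes were higher and 3030 of 13509 lower, so the mitochondrial share higher, 29.5%, lay near that of all genes. The median log2 fold change lay above that of all genes by 0.59 for the cytosolic and 0.29 for the mitochondrial ribosomal proteins without that library, beside 0.59 for the respiratory chain subunits. No test of the difference between these groups of genes was made.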

How the data were processed

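RNA of 10 RPE-1 libraries (5 SFN, 5 DMSO) was analysed from the raw counts per gene deposited by the authors. Their methods give Lexogen QuantSeq libraries aligned with a Bluebee pipeline, and the submitters' processing notes name FastQC, STAR, featureCounts and edgeR on hg38 (GRCh38), with no versions. Whether counting used strand, and how shared reads were treated, is not given in the sources used here. QuantSeq reads lie near transcript 3′ ends.

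Members, gene lists and alternatives were chosen with earlier results of these data known. Symbols were matched to the rule, and GENCODE 44 gave positions and canonical transcript lengths (28145 of 28380 identifiers matched). Genes past edgeR's filterByExpr (13378) were scaled by TMM and tested by glmQLFit and glmQLFTest (edgeR 4.0.16, limma 3.58.1, R 4.3.3), with Benjamini-Hochberg adjustment over all genes tested and no fold limit. Total counts of 12375860 to 20666692 set the precision. Per-library values were given for the members of highest and lowest log2 fold change and of highest mean CPM in each complex, members called, and paralog sets, and of the other lists for genes called or at either end; UQCRC2, UQCRFS1, SDHB, NDUFA10, NDUFV3 and NDUFS1 were added after their values were seen, and NRF1 and TFAM for their known roles, and GABPB2 and SP1 as further calls without DMSO replicate 1. Libraries of the same replicate number deviated together for number 5 only, so no pairing was used. Alternatives were DESeq2 1.42.0 and its size factors, limma-voom with quantile normalization or quality weights, scaling by total counts, no low-count filter, a replicate block, a transcript length offset (loess of log2 CPM on log2 length, span 0.5), a fold limit and leaving out libraries. The scripts were tested on simulated data. RefSeq promoter windows were matched by symbol, and matches on both strands were counted.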

Additional observations from a re-analysis of the deposited data

Results flagged for a closer look

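In groups of 5 libraries, the gap between the most extreme library and its neighbour, divided by the range of the group, was above Dixon's 95% critical value of 0.71 in 20 of 54 groups of named members examined, where about 2.7 are expected by chance; the members share their libraries and are not independent. In 18 of the 20 the library was DMSO replicate 1. It was the highest DMSO library in NDUFB1 (ratio 0.96) and NDUFS5 (0.91) of complex I, in SDHD (0.72) of complex II, and in UQCRQ (0.92), UQCRB (0.97) and UQCRH (0.88) of complex III. In complex IV it was the highest in COX6C (0.97), COX4I1 (0.93), COX7A2L (0.87), COX7A2 (0.91), COX7B (0.94), COX6A1 (0.85) and COX6B1 (0.96). In complex V it was the highest in ATP5MF (0.79), ATP5ME (0.97), ATP5MC2 (0.87) and ATP5MC1 (0.73). It was the lowest DMSO library in NDUFS1 (0.92). The other 2 fell on SFN replicate 2, the highest SFN library in ATP5F1B (0.78) and COX6A1 (0.74), and without that library the ATP5F1B log2 fold change was 0.29.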

How the results depend on the processing

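The count of members higher in SFN, 2 with all libraries by edgeR, was 6 with DESeq2, 70 with limma-voom and sample quality weights, 1 with no low-count filter, and 0 with scaling by total counts, with a replicate block and with a fold limit of 1 on the log2 scale. Leaving out each library in turn gave 0 to 64, the highest without DMSO replicate 1. Without DMSO replicate 1 and SFN replicate 2 it was 56, and 41 with a transcript length offset and without DMSO replicate 1. Over all genes tested the count higher was 1214 of 13378 by edgeR, 1635 with DESeq2 and 3874 with quality weights. It was 1135 of 28380 with no low-count filter, 819 of 13378 with scaling by total counts and 911 with the replicate block. Without DMSO replicate 1 it was 3058 of 13566, and 3447 of 13509 with the length offset as well. Without DMSO replicate 1 and SFN replicate 2 it was 3106 of 13415. The count of members lower, 0, was 1 with quality weights and 1 without DMSO replicate 1 with or without SFN replicate 2, and 0 to 1 over single left-out libraries. Over all genes tested the count lower was 1862 of 13378 by edgeR, 4041 with quality weights and 3193 of 13566 without DMSO replicate 1. The median of complex III relative to all genes turned from -0.08 to 0.45 with quality weights and to 0.37 without DMSO replicate 1 and SFN replicate 2, with a range of -0.19 to 0.39 over left-out libraries; the cause was not tested. With the replicate block it was 0.18, within the spread between libraries. The medians of the members and of complexes I, II, IV and V kept their sign under every alternative run.

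The direction turned to positive log2 fold changes for these members. With quantile normalization they were COX6C 0.087, COX7B 0.23, NDUFS5 0.20, UQCRB 0.16, UQCRH 0.003 and UQCRHL 0.14. With quality weights they were ATP5MC1 0.024, ATP5ME 0.41, COX6C 0.74, COX7B 0.75, NDUFB1 0.46, NDUFS5 0.70, UQCRB 0.67, UQCRH 0.44, UQCRHL 0.28 and UQCRQ 0.57. With the replicate block they were COX6C 0.21, COX7B 0.25, NDUFS5 0.31, UQCRB 0.27, UQCRH 0.049 and UQCRQ 0.017. With the length offset they were NDUFS1 0.051 and NDUFS5 0.08, and without DMSO replicate 1 as well COX6C 0.40, COX7B 0.72, NDUFB1 0.045, NDUFS1 0.066, NDUFS5 0.34, UQCRB 1.003, UQCRH 0.016 and UQCRQ 0.30. Over left-out libraries the range was -0.32 to 0.14 for ATP5MC1, -0.96 to 0.39 for ATP5ME, -0.054 to 0.83 for COX6B1, -0.56 to 0.74 for COX6C, -0.05 to 0.65 for COX7A2, -0.46 to 0.76 for COX7B, -0.82 to 0.50 for NDUFB1, -0.22 to 0.73 for NDUFS5, -0.29 to 0.71 for UQCRB, -0.26 to 0.39 for UQCRH, -0.24 to 0.29 for UQCRHL and -0.53 to 0.50 for UQCRQ.

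Replicate numbers were not taken as pairs, since the correlations of the deviations of same-numbered libraries were 0.0394, -0.267, -0.0605, 0.0308 and 0.484; the replicate block removed both calls. The 5 libraries per group limit the precision, and values under about 2 CPM (among them NDUFA7, NDUFA13, NDUFB8, NDUFV2 and the tissue-restricted forms) rest on few counts. The canonical transcript length is an approximation for genes with several 3′ ends.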
